A study of Mus musculus with 24 samples.

Results

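Phf6 deletion was studied here in multipotent progenitors (MPP), sorted blood-forming cells of mouse bone marrow that no longer renew themselves for long but can still give rise to all blood lineages. The comparison took the 8 MPP libraries of the 24 in the series, chosen by their labels alone: 4 from mice whose Phf6 status was deleted and 4 from mice whose Phf6 was intact (controls). The strain label was the same for both groups, male mice with a floxed Phf6 allele on their X chromosome and a Tie2-cre transgene (Phf6lox/Y;Tie2-creTg/+), which leaves unstated whether control mice had Cre, and no age is given. Tie2-cre is active in endothelium and in the haematopoietic lineage, so vessel endothelium and other blood cells of these mice may carry the deletion too. Each litter, numbered 1 to 4, gave 1 deleted and 1 control mouse, and stem cells (HSC) and the restricted progenitors named HPC-1 were sorted from the same 8 mice. Every gene with enough counts was tested, 13806 in all.

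PHF6 is a protein with plant homeodomain-like zinc fingers that is found on chromatin and in the nucleolus, binds the nucleosome remodelling and deacetylase complex NuRD, and is lost by mutation in T-cell and myeloid leukaemias. Multipotent progenitors divide much more often than stem cells and begin to express genes of the lineages they will enter, FLT3 among them. Interferons bind receptors that activate transcription factors, STAT2 and IRF9 among them, and these switch on antiviral genes, guanylate-binding proteins and, through other regulators, antigen presentation. LIN28B is an RNA-binding protein that blocks the maturation of let-7 microRNAs and is a mark of fetal rather than adult blood stem cells.

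The cells matched their label by its defining markers. With all 24 libraries on 1 scale, Kit lay at 726 to 1110 CPM (counts per library of standard size, after TMM scaling) and Ly6a, which encodes SCA1, at 251 to 378 CPM in control MPP. Slamf1, the gene of the stem cell marker CD150, lay at 1.33 to 2.65 CPM there against 50.3 to 82.7 CPM in control HSC. Flt3, which the sort did not use, lay at 414 to 445 CPM against 27.9 to 54.2 CPM in control HSC. Procr, a stem cell gene that the sort did not use either, went the other way. It lay at 133 to 180 CPM in control MPP against 69.1 to 118 CPM in control HSC. Cd48 lay at 14.3 to 50.4 CPM, against 181 to 218 CPM in control HPC-1, which were made with another library kit. The 8 MPP libraries held between 12385465 and 22133635 counts. The library of deleted mouse 3 stood apart: 14710 genes were detected in it against 15951 to 16479 in the other 7, its 10 most abundant genes took 9.339% of counts against 2.948% to 5.083%, and mitochondrially encoded genes took 5.38% against 1.424% to 3.533%. The means of the groups did not differ in these 3 measures (exact permutation over the 8 libraries, p = 1, 0.229 and 0.314, where 0.0286 is the smallest p possible). Some, but not all, of the results in which this library stood apart are also given without it.

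Of the 13806 genes, 4 passed the threshold of 0.05 on the adjusted p of edgeR's quasi-likelihood test (0.029%). The targeted gene Phf6 fell (1 lower gene, 0.00724%), and Lin28b, the serine protease inhibitor gene Serpina3f and the class II beta chain gene H2-Eb1 rose (3 higher genes, 0.0217%). The groups of 4 did not overlap in any of the 4. Across all genes tested, all deleted libraries lay above all controls for 396 (2.87%) and below them for 401 (2.9%), and 1117 genes had an unadjusted p under 0.05 (8.09%), 788 higher (5.71%) and 329 lower (2.38%). Of all genes tested 51.9% had a log2 fold change above 0.

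The genomic sequence before the start sites of the 3 genes that rose is shown with that of 3 interferon-responsive genes, Cxcl10, Ifit3 and Ifit1, described below. Each run is the 250 bases upstream of the RefSeq start on GRCm38.p6, 5′ to 3′ on the gene's own strand. Capitals mark matches to the interferon-stimulated response element, searched as GAAANNGAAA or its reverse complement TTTCNNTTTC, and to the gamma-activated site TTCNNNGAA, which reads the same on both strands.
Lin28b, chr10:45470202-45470451, minus strand: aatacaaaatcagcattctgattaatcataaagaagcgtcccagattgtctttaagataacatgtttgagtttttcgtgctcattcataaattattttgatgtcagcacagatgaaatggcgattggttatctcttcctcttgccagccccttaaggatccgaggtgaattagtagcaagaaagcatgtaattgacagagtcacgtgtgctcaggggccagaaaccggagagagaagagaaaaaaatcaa
Serpina3f, chr12:104214294-104214543, plus strand: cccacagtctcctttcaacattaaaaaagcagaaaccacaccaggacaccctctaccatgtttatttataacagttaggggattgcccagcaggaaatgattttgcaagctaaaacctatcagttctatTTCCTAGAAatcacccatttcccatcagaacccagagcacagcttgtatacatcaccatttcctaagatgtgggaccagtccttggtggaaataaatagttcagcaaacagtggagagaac
H2-Eb1, chr17:34305617-34305866, plus strand: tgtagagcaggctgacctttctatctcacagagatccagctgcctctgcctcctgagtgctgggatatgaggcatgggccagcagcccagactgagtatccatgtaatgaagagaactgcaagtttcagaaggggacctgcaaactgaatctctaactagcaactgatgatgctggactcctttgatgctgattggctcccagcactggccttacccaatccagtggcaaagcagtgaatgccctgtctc
Cxcl10, chr5:92348890-92349139, minus strand: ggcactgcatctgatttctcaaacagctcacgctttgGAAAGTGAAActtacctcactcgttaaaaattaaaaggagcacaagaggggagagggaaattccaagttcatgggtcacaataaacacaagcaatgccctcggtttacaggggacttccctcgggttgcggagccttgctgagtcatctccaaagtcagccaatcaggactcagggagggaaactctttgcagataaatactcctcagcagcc
Ifit3, chr19:34583279-34583528, plus strand: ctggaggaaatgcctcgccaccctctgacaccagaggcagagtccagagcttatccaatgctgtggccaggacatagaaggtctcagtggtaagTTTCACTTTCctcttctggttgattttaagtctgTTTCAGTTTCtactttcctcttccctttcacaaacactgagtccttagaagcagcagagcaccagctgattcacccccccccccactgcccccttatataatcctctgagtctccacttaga
Ifit1, chr19:34640639-34640888, plus strand: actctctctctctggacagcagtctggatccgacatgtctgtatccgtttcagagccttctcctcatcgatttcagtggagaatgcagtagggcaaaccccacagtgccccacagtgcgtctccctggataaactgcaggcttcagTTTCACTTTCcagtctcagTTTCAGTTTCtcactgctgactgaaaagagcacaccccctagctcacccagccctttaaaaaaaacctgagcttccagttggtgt

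The targeted gene checks the labels. Phf6 was at 192, 170.2, 231 and 182 CPM in controls 1 to 4 and at 48.6, 67.4, 49.5 and 55 CPM in deleted mice 1 to 4. Every deleted library lay below every control, and the highest deleted value, in litter 2, was still well under the lowest control. The log2 fold change was -1.82 ± 0.18 (here and below the fold change is deleted minus control and ± is its standard error; edgeR adjusted p = 0.00432). The counts are per gene, so reads from inside and outside the floxed segment cannot be told apart, and what the residual level consists of was not tested.

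Lin28b was all but silent in control MPP. It was at 0.0601, 0.0757, 0 and 0 CPM in controls 1 to 4 and at 4.4, 8.16, 7 and 7.2 CPM in deleted mice 1 to 4 (edgeR adjusted p = 0.00432). The deleted libraries held 72 to 162 Lin28b counts each and all controls together held 2, which makes the group ratio 215 (exact 95% interval 59.2 to 1780, for counting error only). The deleted level remained low for its length, at 1.24 RPKM (CPM per kilobase of gene), against 12.7 RPKM for the residual Phf6 and 40.1 RPKM for H2-Eb1 in the same libraries. Lin28b passed the threshold in each of the 8 fits that left out 1 library (edgeR adjusted p up to 0.0354), and so did Phf6 (up to 0.0478). Without both mice of litter 4 neither passed (adjusted p = 0.124 for each), at fitted log2 fold changes of 7.10 against 7.43 for Lin28b and -1.84 against -1.82 for Phf6. In HSC, controls were not silent: Lin28b lay at 0.971, 0.613, 3.47 and 2.94 CPM in controls 1 to 4 and at 2.94, 14.6, 20.0 and 21.5 CPM in deleted mice 1 to 4. In HPC-1 the controls lay at 1.2, 0, 0 and 0.114 CPM and the deleted mice at 0.718, 1.62, 2.75 and 5.04 CPM. The groups overlapped in both of these populations and in MPP they did not. The log2 effect in MPP exceeded that in HSC by 4.54 ± 1.10 (unadjusted p = 0.000673, edgeR adjusted p = 1 over all genes), a test that did not pass. That difference rests on the 2 counts of all MPP controls together. In CPM, scaled within each population, deleted mice 2 to 4 lay higher in HSC than in MPP, and deleted mouse 1 lay lower.

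Other genes known from fetal progenitors did not pass. Of 21 listed genes 11 were tested, 9 lay higher and 2 lower with a median log2 fold change of 0.28, against 0.02 over all genes tested, and Lin28b was the only 1 of them with an unadjusted p under 0.05. Hmga2, a chromatin architectural protein gene that let-7 represses, was at 18, 10.4, 17.3 and 11.9 CPM in controls and 17.6, 10.1, 36.6 and 23.4 CPM in deleted mice 1 to 4. Its groups overlapped, with only deleted mice 3 and 4 above all controls (0.60 ± 0.37, edgeR adjusted p = 0.643). Lin28a, the paralogue of Lin28b, was below the filter with 21 counts in controls and 60 in deleted mice, and Igf2bp1, a fetal RNA-binding protein gene, had 0 counts in all 8 libraries.

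Serpina3f lies in a cluster of related protease inhibitor genes that are induced by inflammatory signals. It was at 16.6, 12, 14.4 and 18 CPM in controls and at 46.3, 42.5, 46.7 and 57.8 CPM in deleted mice 1 to 4. All deleted libraries exceeded all controls (1.66 ± 0.21, edgeR adjusted p = 0.0245), with log2 differences between littermates of 1.47, 1.82, 1.69 and 1.68 in litters 1 to 4. When 1 library was left out Serpina3f passed only without deleted mouse 3 (adjusted p = 0.00302, up to 0.208 in the other 7 fits), with log2 fold changes of 1.56 to 1.75. Of 11 listed genes of the cluster 4 were tested and 3 were higher, with a median of 0.21. Serpina3g, at a per-length level of 252 RPKM in controls against 6.66 RPKM for Serpina3f, was at 421, 441, 583 and 517 CPM in controls and 669, 624, 493 and 572 CPM in deleted mice. Those groups overlapped (0.26 ± 0.18, edgeR adjusted p = 0.648). Members of this family are close in sequence, and how reads shared between them were counted is not given in the sources used here.

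**Figure D1:**
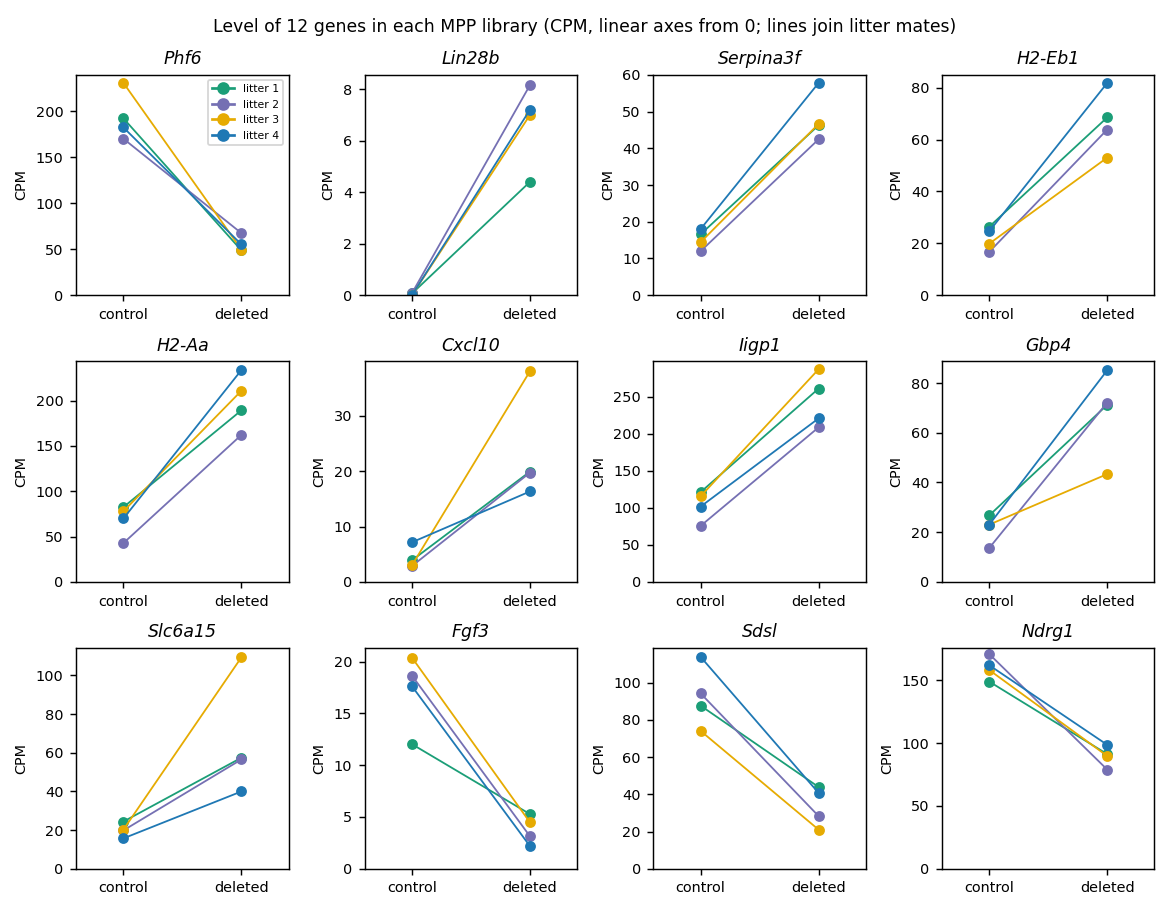
Level in CPM (linear axes from 0) of Phf6, Lin28b, Serpina3f, H2-Eb1 and 8 other genes in the 4 control and 4 deleted MPP libraries. Each line joins the control and the deleted mouse of a litter, and every line of the first row falls for Phf6 and climbs for the other 3, with Phf6 between 170.2 and 231 CPM in controls and between 48.6 and 67.4 CPM in deleted mice.

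Class II antigen presentation genes were higher together at the level of the peptide-binding chains. H2-Eb1, a beta chain, was at 26.4, 16.7, 19.8 and 24.6 CPM in controls and 68.6, 63.9, 53.1 and 81.9 CPM in deleted mice 1 to 4 (1.61 ± 0.22, edgeR adjusted p = 0.0417). The alpha chain gene H2-Aa was at 82.4, 42.8, 77.9 and 69.9 CPM in controls and 189, 162, 211 and 234 CPM in deleted mice. Its partner chain gene H2-Ab1 was at 158, 133, 146 and 220.4 CPM and 414, 353, 355 and 555 CPM. In each of the 3 genes every deleted library exceeded every control. H2-Aa (1.54 ± 0.23, edgeR adjusted p = 0.0633) and H2-Ab1 (1.35 ± 0.22, adjusted p = 0.085) missed the threshold. With the litter as a block both passed (adjusted p = 0.0493 for each) and H2-Eb1 did not (1.62, adjusted p = 0.0572). When 1 library was left out H2-Eb1 also passed only without deleted mouse 3 (0.00302, up to 0.231 in the others).

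The invariant chain gene Cd74, whose product guides class II molecules through the cell, was at 206, 140.3, 200.2 and 222 CPM in controls and 527, 450.0, 329 and 784 CPM in deleted mice (1.44 ± 0.27, edgeR adjusted p = 0.139). Deleted mouse 3 was the lowest of the deleted group and deleted mouse 4 the highest, and the groups did not overlap. Ctss, a protease that trims the invariant chain, was at 1.03 ± 0.24 (edgeR adjusted p = 0.328), also with no overlap. These were the 5 of 11 tested class II genes whose groups did not overlap (45.5%, against 2.87% of all genes), in a list where 10 were higher, 1 was lower, and the median was 0.46. Ciita, the master regulator of class II transcription, was at 8.41, 4.54, 5.90 and 13.7 CPM in controls and 9.57, 15.2, 6.22 and 13.5 CPM in deleted mice, with overlapping groups (0.46 ± 0.40, adjusted p = 0.706). The peptide-loading chain genes H2-DMa and H2-DMb1 also overlapped, at 0.20 ± 0.17 and 0.26 ± 0.24.

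The guanylate-binding proteins (GBP) and immunity-related GTPases (IRG), interferon-induced enzymes that attack the vacuoles of intracellular pathogens, had the highest median of the lists of interferon-linked genes. All 18 were tested and all 18 lay higher, with a median of 0.86 and 0.70 without deleted mouse 3. None passed the adjusted threshold, 14 had an unadjusted p under 0.05 (77.8%, against 5.71% of all genes tested in this direction) and 8 did not overlap (44.4%, against 2.87%). In 15 of 18 (83.3%) the deleted mouse exceeded its littermate in all 4 litters, which held for 10.7% of all genes tested. This list and the others were chosen with earlier results of these data known, so such shares describe the members and are not a test. Iigp1, an IRG effector, was at 121, 75.6, 116 and 102 CPM in controls and 261, 208, 287 and 221 CPM in deleted mice (1.24 ± 0.20, edgeR adjusted p = 0.0844). Gbp4 was at 26.7, 13.6, 23 and 23 CPM in controls and 71.2, 72.2, 43.4 and 85.1 CPM in deleted mice (1.65 ± 0.27, adjusted p = 0.085). The groups of both were separate, and deleted mouse 3, the lowest of its group for Gbp4, was the highest for Iigp1. Gm4951, a predicted gene placed in this family, was at 44.6, 21.4, 39.4 and 32.8 CPM in controls and 105, 95.8, 168 and 121 CPM in deleted mice (1.82 ± 0.26, adjusted p = 0.0633, and 0.0493 with the litter block). Gbp6 was at 1.73 ± 0.35 (adjusted p = 0.214). Several of these genes are near-identical neighbours, so the split of reads among them is uncertain.

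Genes of the type I interferon response were higher in 47 of 50 members, with a median log2 fold change of 0.56, 0.52 without deleted mouse 3 and 0.54 without litter 4. None passed the adjusted threshold. An unadjusted p under 0.05 in the upward direction was reached by 27 (54%, against 5.71% of all genes tested) and by none downward. Groups did not overlap for 16 (32%, against 2.87% of all genes tested), and 33 (66%, against 10.7%) were higher in all 4 litters. The list score, the mean centred log2 CPM of its members, lay at -0.41, -0.59, -0.19 and -0.14 in controls 1 to 4 and at 0.23, 0.15, 0.42 and 0.53 in deleted mice 1 to 4, so the libraries of the groups were separate in this summary.

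Among the antiviral effectors, Ifit3 was at 7.09, 2.88, 4.78 and 4.65 CPM in controls and 20.5, 11.3, 15.6 and 27 CPM in deleted mice (1.94 ± 0.36, edgeR adjusted p = 0.146). Ifit1, which senses RNA lacking host cap marks, was at 41.8, 30.7, 61.8 and 48 CPM and 107, 81.4, 94 and 135 CPM (1.20 ± 0.24, adjusted p = 0.214). The groups were separate for both genes. Ifi204, a DNA-binding protein gene of the p200 family, was at 1.86, 2.5, 1.4 and 3.28 CPM in controls and 9.11, 10.2, 28.8 and 10.2 CPM in deleted mice (2.69 ± 0.47, adjusted p = 0.12). Mx1, a dynamin-like antiviral gene listed as a transcribed pseudogene in the RefSeq table of this strain, was at 3.37, 5.91, 5.27 and 7.17 CPM and 19.9, 21.2, 63.2 and 19 CPM (2.50 ± 0.44, adjusted p = 0.12). For Ifi204 and Mx1 deleted mouse 3 was far above the other 3, and those 3 still exceeded every control. Without that library the adjusted p of each fell under the threshold.

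No gene of the machinery upstream passed. Of 22 tested ligand, receptor and signalling genes 12 were higher and 10 lower, with a median of 0.16. Irf9, the DNA-binding partner of STAT2, was at 164, 161, 206 and 183 CPM in controls and 265, 244, 233 and 258 CPM in deleted mice (0.48 ± 0.16, edgeR adjusted p = 0.553). All deleted libraries exceeded all controls for Irf9, by a margin that did not pass. Usp18, a brake on the type I receptor, was at 0.61 ± 0.23 and Irf2 at 0.44 ± 0.19. Ifng, the type II ligand, had 0 counts in all 8 libraries and Ifnb1, a type I ligand, had 0 counts in controls and 1 in deleted mice, which limits what these RNA pools held and not what the marrow around them held. Of 16 nucleic acid sensor genes 11 were higher with a median of 0.21, including Dhx58, a cytoplasmic RNA sensor (0.59 ± 0.22), and Zbp1, a sensor of Z-form nucleic acid (0.52 ± 0.23).

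**Figure D2:**
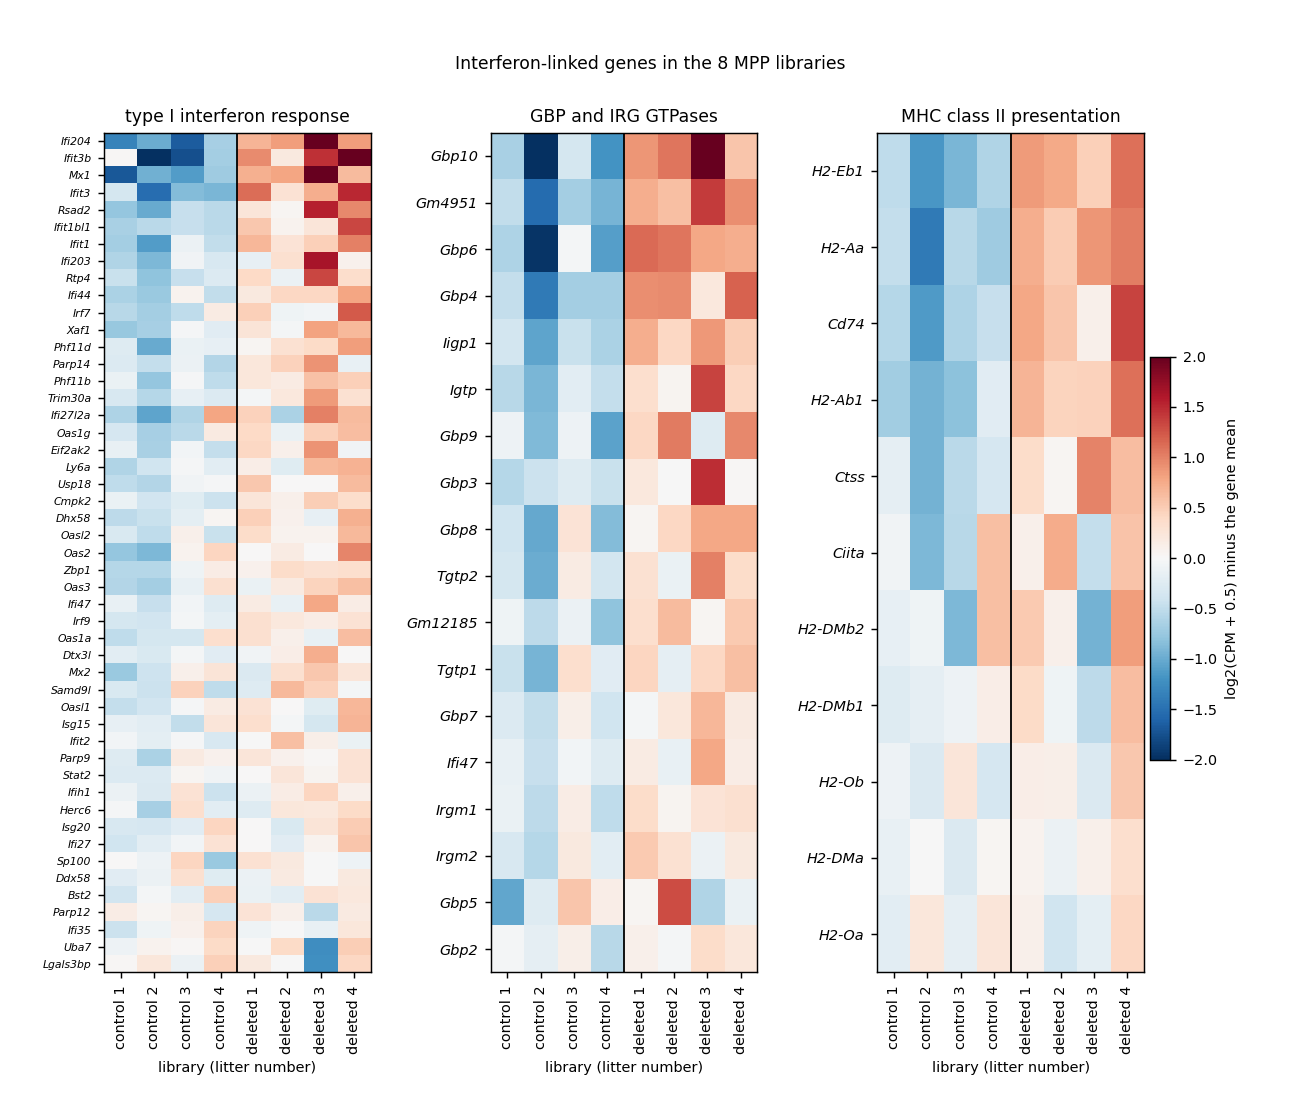
Tested members, all but 1, of 3 interferon-linked lists in the 8 MPP libraries as log2(CPM + 0.5) minus the gene's mean over the libraries, blue below and red above that mean; rows are genes ordered by fold change, columns are control 1 to 4 and deleted 1 to 4. The upper rows change from blue to red at the line between the groups, and the lower rows, such as Isg15 and H2-DMa, do not separate.

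Of 19 tested class I genes 13 were higher and 6 lower, with a median of 0.11. H2-T22, a non-classical class I heavy chain, was at 58.2, 58.4, 63 and 65.7 CPM in controls and 101, 78.4, 99.3 and 88.8 CPM in deleted mice, with separate groups (0.58 ± 0.16, edgeR adjusted p = 0.525). B2m, the shared light chain, was at 3956, 3717, 4520.0 and 3184 CPM in controls and 4694, 4505, 11720.0 and 4380.0 CPM in deleted mice, where deleted mouse 3 lay far above its group mates (0.72 ± 0.32, adjusted p = 0.616). Nlrc5, the class I counterpart of Ciita, was at 0.66 ± 0.20 with overlapping groups. Among 25 tested chemokine and NF-kB target genes 16 were higher and 9 lower. Cxcl10, an interferon-induced chemokine that draws activated T cells, was at 3.9, 2.88, 3.02 and 7.17 CPM in controls and 19.9, 19.8, 38.1 and 16.4 CPM in deleted mice (2.47 ± 0.39, edgeR adjusted p = 0.0844). All 4 deleted libraries exceeded all controls, with deleted mouse 3 highest. Vcam1, an adhesion receptor gene, moved the other way (-1.55 ± 0.46) at 1.03 RPKM in controls.

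The upstream windows of these genes, where RefSeq gave one, were searched for the motifs given above. Gbp4, Gbp6, Mx1, Ifi204 and H2-Ab1 had no window. The interferon-stimulated response element was present in 2.98% of 32851 RefSeq windows and in 3.31% of the 10456 tested genes with a window. It was present in 14 of 36 type I interferon genes with a window (38.9%), in 10 of 11 GBP and IRG genes (90.9%), in 3 of 16 class I genes (18.8%) and in 1 of 8 class II genes (12.5%). The 11 GBP and IRG genes with a window are part of the 18 tested. Iigp1, Gbp4, Gm4951 and Gbp6, whose values are given above, are not among the 10 with the element, which does not show that they lack it. Gbp4 and Gbp6 had no window to search. As 10 of the 11 genes searched held the element, Iigp1 and Gm4951 cannot both have been searched. Ifit3 and Ifit1 each held 2 matches, at 156 and 122 and at 104 and 85 bases before the start, and Cxcl10 held 1 at 213. The gamma-activated site was in 7.15% of tested genes with a window, in 7 of 11 GBP and IRG genes (63.6%) and in 5 of 36 type I interferon genes (13.9%). Serpina3f held 1, TTCCTAGAA, 121 bases before the start. Lin28b and H2-Eb1 held neither in their windows. The start used for Lin28b lies inside the RefSeq span of the gene (chr10:45376617-45486314, minus strand), and that used for Ifit3 inside its span (chr19:34583119-34588982), so their outermost starts are not covered. No window of 26 S phase genes or 42 ribosome biogenesis genes held the response element. A match describes these letters only.

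Among the other genes with the lowest p in the upward direction, Slc6a15, a transporter of neutral amino acids, was at 24.4, 19.8, 20.2 and 15.7 CPM in controls and 57.4, 56.5, 109 and 40.0 CPM in deleted mice (1.71 ± 0.30, edgeR adjusted p = 0.12). Asb4, a substrate adaptor of ubiquitin ligases, was at 1.74, 5.07, 1.89 and 1.68 CPM and 22, 11, 16.1 and 15.1 CPM (2.64 ± 0.43, adjusted p = 0.085). Control 2 was the highest control for Asb4, and every deleted library still exceeded it. Without control 2 Asb4 passed. Pbx3, a HOX cofactor, was at 16.6, 14.7, 21 and 16.2 CPM in controls and 35, 34.7, 36.4 and 30.7 CPM in deleted mice, a narrow spread in both groups (1.00 ± 0.19, adjusted p = 0.171). Id2, an inhibitor of basic helix-loop-helix factors, was at 8.77, 6.36, 7.12 and 7.01 CPM and 19.3, 12.5, 19.3 and 18 CPM, also separate (1.24 ± 0.26, adjusted p = 0.214).

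No gene other than Phf6 fell past the threshold. The candidates with the lowest p were Fgf3, a secreted fibroblast growth factor, at 12, 18.6, 20.4 and 17.6 CPM in controls and 5.27, 3.13, 4.47 and 2.18 CPM in deleted mice (-2.19 ± 0.34, edgeR adjusted p = 0.0844), and Sdsl, a serine dehydratase-like enzyme, at 87.6, 94.2, 74 and 114 CPM and 43.9, 28.3, 21 and 40.7 CPM (-1.46 ± 0.25, adjusted p = 0.12). Ndrg1, a stress-responsive gene linked to differentiation, was at 149, 171, 158 and 162 CPM in controls and 91.2, 78.9, 89.7 and 98.6 CPM in deleted mice (-0.84 ± 0.15, adjusted p = 0.137). In all 3 genes every deleted library lay below every control. Nefh, a neurofilament chain, was at 49.7, 46.9, 46.6 and 56.9 CPM and 28.1, 25, 25 and 30.4 CPM (-0.88 ± 0.17, adjusted p = 0.181). Itga2b, the integrin alpha chain CD41 of megakaryocytes and early progenitors, was at 66.2, 67.7, 65.6 and 73.4 CPM in controls and 34.5, 37.7, 22 and 40.0 CPM in deleted mice, with deleted mouse 3 lowest (-1.02 ± 0.21, adjusted p = 0.214). These groups were separate too. Fbp1, a gluconeogenic phosphatase, was at -1.37 ± 0.30. Fcgr2b, the inhibitory Fc receptor, was at -1.95 ± 0.43. Bcam, a laminin-binding adhesion protein, was at -1.53 ± 0.34. In these 3 genes too every deleted library lay below every control. Plscr2, a scramblase family member, was at -1.95 ± 0.40. Yes1, a Src family kinase, was at -1.03 ± 0.24. Sardh, the sarcosine dehydrogenase of mitochondria, had the steepest fold of the group (-3.45 ± 0.80) at only 0.455 RPKM in controls. Their adjusted p lay between 0.214 and 0.344.

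The number of genes called differed between methods and with the libraries kept. DESeq2 on the same 8 libraries called 96, 80 higher (0.579%) and 16 lower (0.116%), and limma-voom with a weight for the quality of each library called 60, 49 higher (0.355%) and 11 lower (0.0797%). They had 54 genes in common, 46 higher and 8 lower. Plain limma-voom called 6. Of the 80 higher genes of DESeq2, 21 belonged to the type I interferon, GTPase or class II lists, which hold 78 of the tested genes (Ifi47 is in the first and the second), and none of its 16 lower genes did. With library weights this was 19 of 49 and none of 11. Without deleted mouse 3 edgeR called 22 genes, 15 higher and 7 lower, among them H2-Aa, H2-Ab1, Cd74, Gbp4, Gm4951, Iigp1, Ifi204, Ifit3, Mx1 and Cxcl10. Without litter 4 edgeR called none, and 717 genes had an unadjusted p under 0.05.

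**Figure D3:**
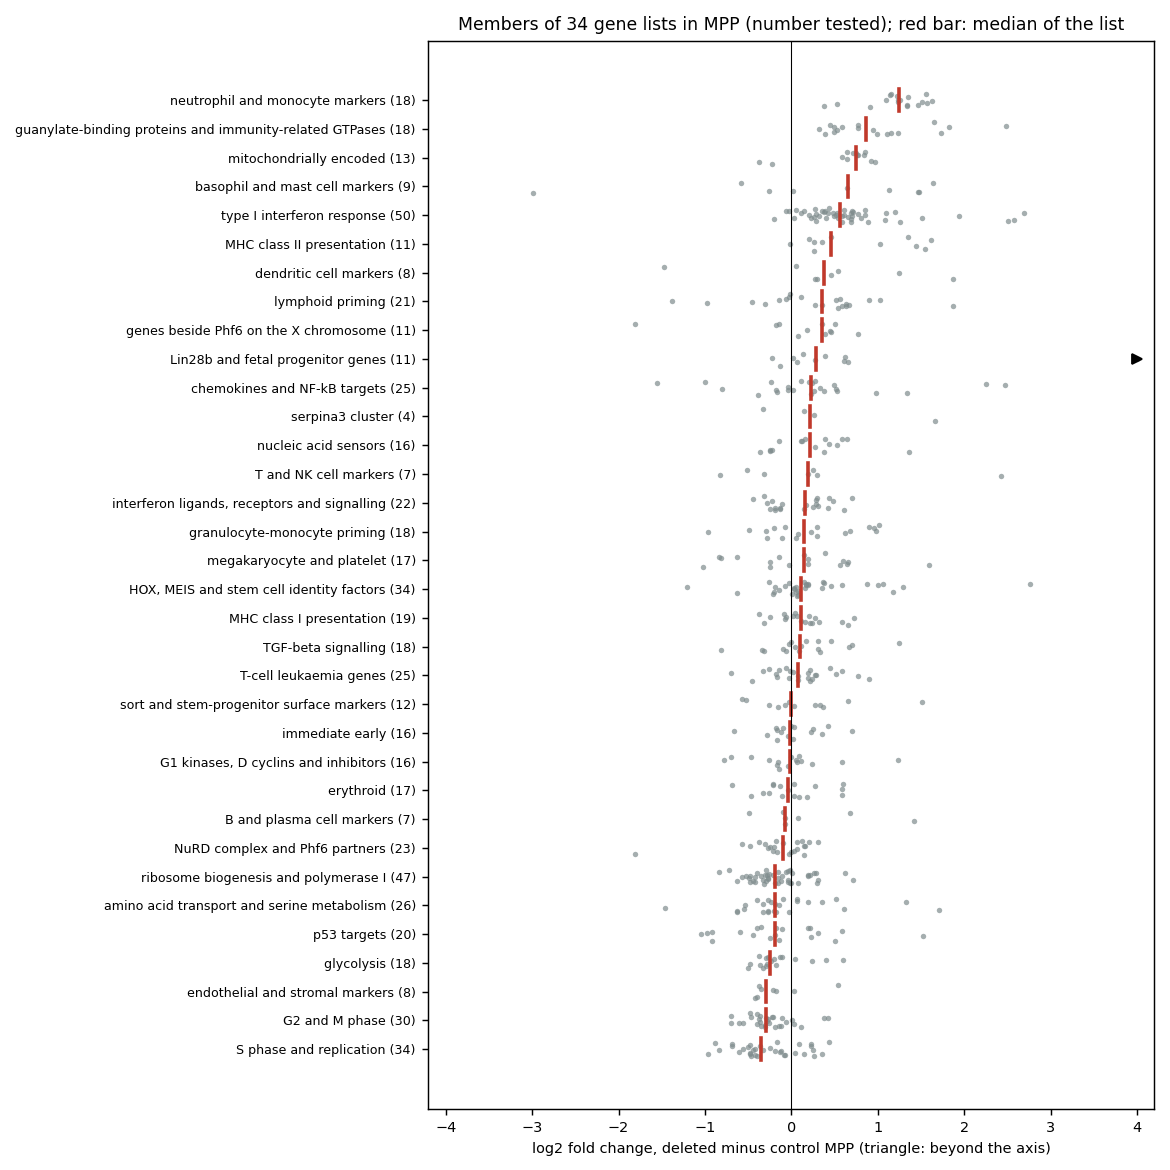
Log2 fold change, deleted minus control MPP, of each tested member of the 34 gene lists, 1 grey point per gene with the number tested in brackets and a red bar at the list median; lists are ordered by median. The GTPase list lies wholly right of 0 (median 0.86), the type I interferon list nearly so (0.56), and the S phase list lies mostly left (-0.35); Lin28b at 7.43 is drawn as a triangle at the edge.

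Genes of the dividing cell lay mostly below their control level, with no member past the threshold and the lowest scores in deleted mouse 4. Of 34 S phase and replication genes 25 were lower and 9 higher, with a median of -0.35 and -0.15 without litter 4. None passed, 8 had an unadjusted p under 0.05 in the downward direction (23.5%, against 2.38% of all genes), and 13 (38.2%) were lower in all 4 litters, against 11% of all genes. Their score lay at 0.25, 0.22, 0.02 and 0.22 in controls and at 0.09, 0.08, -0.14 and -0.74 in deleted mice 1 to 4, so deleted mouse 4 stood far below the rest. That library also held the most RNA of neutrophil and monocyte markers, with a score of 2.64 and a summed level of 16010 CPM against 619 to 4097 CPM in the other 7, and the part of this in the cell cycle values was not tested. Chaf1a, a histone chaperone that assembles chromatin behind the fork, was at 75.5, 79.2, 47.6 and 78.8 CPM in controls and 49.5, 44.6, 25.1 and 32.5 CPM in deleted mice (-0.89 ± 0.26, edgeR adjusted p = 0.551). Mcm3, a subunit of the replicative helicase, was at 352, 393, 331 and 373 CPM and 283, 289, 153 and 177 CPM (-0.68 ± 0.22, adjusted p = 0.554). The groups of Mcm3 were separate and those of Chaf1a overlapped, control 3 lying below deleted mouse 1.

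G2 and M phase genes were lower in 25 of 30, with a median of -0.29 that shrank to -0.07 without litter 4, and their score of -1.18 in deleted mouse 4 compared with -0.02 to 0.33 in the other 7 libraries. In 4 of the 30 (13.3%) the deleted mouse was lower in all 4 litters and 1 (3.33%) had an unadjusted p under 0.05, shares near the 11% and 2.38% of all genes. Bub1b, a spindle checkpoint kinase, was at 70.2, 71, 75 and 67.4 CPM in controls and 47.3, 72, 33.4 and 22.1 CPM in deleted mice, where deleted mouse 2 lay within the control range and deleted mouse 4 was lowest (-0.70 ± 0.31, edgeR adjusted p = 0.616). Myc, a driver of growth and ribosome production, was at 408, 394, 412 and 587 CPM in controls and 289, 359, 195 and 262 CPM in deleted mice, with separate groups (-0.70 ± 0.22, adjusted p = 0.551). Cdk6, the D-cyclin kinase of blood progenitors, was at -0.78 ± 0.27 with overlapping groups.

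Ribosome biogenesis and RNA polymerase I genes, of interest because PHF6 resides in the nucleolus, were lower in 36 of 47 with a median of -0.19. None passed, 5 had an unadjusted p under 0.05 in the downward direction (10.6%, against 2.38%) and 7 (14.9%, against 2.9% of all genes) had groups that did not overlap. Bop1, which matures the large subunit, was at 111, 127, 105 and 162 CPM in controls and 85.1, 84, 64.5 and 93.3 CPM in deleted mice, all below the controls (-0.62 ± 0.19, edgeR adjusted p = 0.551). Rrp12, an export factor of pre-ribosomes, was at -0.84 ± 0.28, and Nat10, an RNA acetyltransferase of the nucleolus, at -0.72 ± 0.25. Ubtf, the polymerase I factor that PHF6 is known to bind, was at 152, 152, 136 and 146 CPM in controls and 117, 121, 78.8 and 104 CPM in deleted mice, also separate (-0.48 ± 0.17, adjusted p = 0.597). The 23 NuRD and PHF6 partner genes had a median of -0.10, Phf6 itself included. Amino acid transport and serine metabolism genes were lower in 18 of 26 (median -0.19), with Shmt1, a one-carbon enzyme, at -0.55 ± 0.22, and Slc6a15, described above, was among the 8 that were higher.

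**Figure D4:**
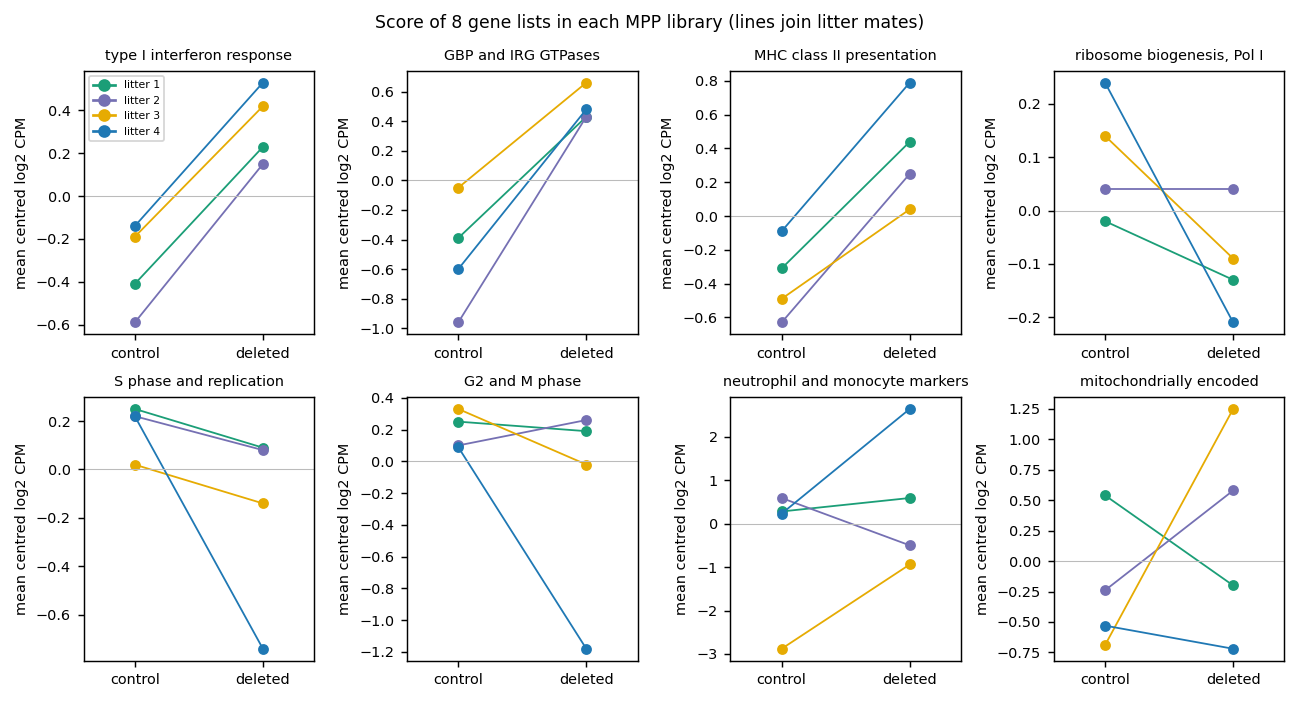
Score of 8 gene lists (mean of log2 CPM over members, each centred on the 8 libraries) in each MPP library, with a line joining the mice of a litter. The lines of the 3 interferon-linked lists climb in all litters, and those of the S phase list descend in all litters, with deleted mouse 4 at -0.74. The neutrophil list climbs most in litters 3 and 4. The mitochondrial list climbs most in litter 3, from -0.69 to 1.25, climbs in litter 2 and falls in litters 1 and 4.

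Of 21 tested lymphoid priming genes 13 were higher and 8 lower, the median was 0.35 (0.21 without deleted mouse 3), and 6 had groups that did not overlap (28.6%, against 2.87% of all genes), all upward. Ikzf2, a zinc finger factor of lymphoid cells, was at 80.2, 76.5, 97.9 and 54.4 CPM in controls and 106, 148, 266 and 111 CPM in deleted mice (1.03 ± 0.30, edgeR adjusted p = 0.551). Mef2c, which favours lymphoid over myeloid fate, was at 252, 232, 269.9 and 191 CPM and 301, 361, 529.9 and 274 CPM (0.63 ± 0.23, adjusted p = 0.593). Both were highest in deleted mouse 3. Flt3, the receptor that marks lymphoid-primed progenitors, was at 456, 426, 439.5 and 442 CPM in controls and 513, 548, 520.1 and 557 CPM in deleted mice, separate with a small fold (0.28 ± 0.14, adjusted p = 0.627). Granulocyte-monocyte priming genes had a median of 0.15, which was 0.45 without deleted mouse 3, -0.20 without litter 4 and -0.03 with the litter block. Megakaryocyte and platelet genes had 0.14 (-0.21 without deleted mouse 1) and erythroid genes -0.04 (0.16 without litter 4), so none of these 3 medians kept its sign, and no member passed.

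HOX, MEIS and stem cell identity factors were higher in 25 of 34 with a median of 0.11. Hoxa5 was at 18.4, 16.7, 18.4 and 15 CPM in controls and 25.6, 21.9, 55.9 and 22.9 CPM in deleted mice (0.88 ± 0.31, edgeR adjusted p = 0.592). Hoxb3 was at 4.81, 4.24, 10.1 and 5.87 CPM and 9.41, 7.49, 140.5 and 14.5 CPM (2.76 ± 0.88), a value that rests on deleted mouse 3 and lay between 0.74 and 3.10 when 1 library was left out. In both genes deleted mouse 3 was highest, and for Hoxa5 the other deleted libraries were above the controls as well. Of the 25 tested T-cell leukaemia genes 15 were higher with a median of 0.08, among them Hes1, the NOTCH target, at 0.90 ± 0.40, while Gata3 was at -0.46 ± 0.21.

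Ly6a and Kit, genes that define the sort, did not pass. Ly6a, itself an interferon-responsive gene, was at 258, 299, 386 and 339 CPM in controls and 429, 330.2, 619 and 639.5 CPM in deleted mice (0.65 ± 0.24, edgeR adjusted p = 0.596). Kit, the stem cell factor receptor, was at 1010.0, 1080.0, 1135 and 748 CPM and 728, 826, 466 and 745 CPM (-0.52 ± 0.22, adjusted p = 0.609). The groups overlapped for both. In bulk RNA of a sorted gate, fewer cells of a type and less RNA per cell cannot be told apart.

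Markers of cells outside the gate were counted in the same libraries. All 18 neutrophil and monocyte markers were higher, with a median of 1.25, no group separation and no unadjusted p under 0.05. Ngp, a neutrophil granule protein, was at 357, 416, 38.4 and 359.8 CPM in controls and 553, 255, 202 and 2618 CPM in deleted mice, so control 3 was lowest and deleted mouse 4 highest (1.63 ± 0.84, edgeR adjusted p = 0.624). The summed level of the 18 ran from 619 to 3626 CPM in controls and from 1876 to 16010 CPM in deleted mice, and without litter 4 the median was 0.03, while that of the type I interferon list was 0.54 and that of the class II list 0.72. Of 16 dendritic cell markers 8 were tested and 7 were higher (median 0.38), with a summed level of 667 to 735 CPM in controls and 826 to 961 CPM in deleted mice. Most of that sum was Flt3 and Tcf4, which progenitors express as well, and the score of the list overlapped between the groups (controls from -0.31 to 0.20, deleted mice from -0.12 to 0.60). Siglech, which defines plasmacytoid cells, had 0 counts in controls and 1 in deleted mice, Xcr1 had 0 and 14, Clec9a 14 and 65, and Itgax 2 and 11. Zbtb46, the 1 tested marker that was lower, had 242 counts in controls and 93 in deleted mice. Among the 8 tested, groups did not overlap for 3 that were higher (37.5%, against 2.87% of all genes). The same held for 1 that was lower (12.5%, against 2.9%). Deleted mouse 3 had the highest dendritic score (0.60) and the lowest class II score of the deleted group (0.04). The B cell genes Pax5, Ebf1 and Blk and the T and NK cell genes Cd3e, Cd8a, Cd8b1 and Ncr1 were at 0 counts in all 8 libraries. Other members of these lists were detected. Cd79b of the B cell list had 2711 counts in controls and 3112 in deleted mice. Of the T and NK cell list, Nkg7 had 9923 and 5719, Lat 5317 and 3951, and Cd4 92 and 345. Among its 7 tested members 4 were higher and 3 lower. The groups of 2 did not overlap, both lower (28.6%, against 2.9% of all genes). The part of the detected neutrophil and dendritic markers in the interferon and class II results was not tested beyond these values.

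The same contrast was then set beside HSC and HPC-1 by testing the difference of the effects. For MPP against HSC edgeR called 0 of 14561 genes, with 417 at an unadjusted p under 0.05 (2.86%), limma-voom called 0 and DESeq2 called 2, Dsc2 and Maneal. For MPP against HPC-1 edgeR called 0 of 14909, with 668 at an unadjusted p under 0.05 (4.48%), limma-voom called 0 and DESeq2 called 7. Among the class II genes, the log2 effect on H2-Eb1 was 1.61 ± 0.22 in MPP, 0.63 ± 0.31 in HSC and 0.85 ± 0.43 in HPC-1, and MPP exceeded HSC by 0.99 ± 0.37 (unadjusted p = 0.0166, edgeR adjusted p = 1). For Cd74 the effects were 0.48 ± 0.20 (HSC) and 0.78 ± 0.40 (HPC-1), and MPP exceeded HSC by 0.98 ± 0.34 (unadjusted p = 0.0105, adjusted p = 1). For H2-Aa MPP exceeded HSC by 0.88 ± 0.34 (unadjusted p = 0.0172, adjusted p = 1). For H2-Ab1 MPP exceeded HSC by 0.52 ± 0.30 (edgeR unadjusted p = 0.1025). None of these differences passed. The genes were named for their low p in MPP, a choice that favours larger effects there. Their shared direction is therefore no separate evidence of a stronger effect in MPP.

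For Iigp1 the estimates lay close together. It was at 1.24 ± 0.20 in MPP, 1.23 ± 0.25 in HSC and 1.43 ± 0.19 in HPC-1, where it passed (edgeR adjusted p = 0.00964), and the difference between MPP and HSC was 0.02 ± 0.32. Slc6a15 gave 1.10 ± 0.35 for HSC and 1.95 ± 0.25 for HPC-1, where it passed (adjusted p = 0.00856). Cxcl10 gave 2.59 ± 0.84 for HSC and 1.36 ± 1.02 for HPC-1 with wide errors. Itga2b had the lowest p for a difference from HPC-1 among the lower genes described above, with effects of -0.02 ± 0.19 (HSC) and -0.06 ± 0.13 (HPC-1), and a difference of -0.95 ± 0.24 from HPC-1 (unadjusted p = 0.00109, adjusted p = 0.915). The lowest p for a difference from HPC-1 belonged to Wfdc18, a small secreted protease inhibitor-like gene. It was at 15.5, 12.2, 12.3 and 11.5 CPM in control MPP and 32.1, 16.1, 45.9 and 36 CPM in deleted MPP, and its log2 effect was 1.33 ± 0.30 there against -1.30 ± 0.68 in HPC-1 (difference 2.63 ± 0.49, adjusted p = 0.629). Maneal, Flt4 and Foxq1 had the lowest p for a difference from HSC and Lancl3 and Pkp2 the next lowest from HPC-1. No MPP library held more than 11.1 CPM of any of these 5, and their fitted differences, which rest on such low levels, are not given.

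**Figure D5:**
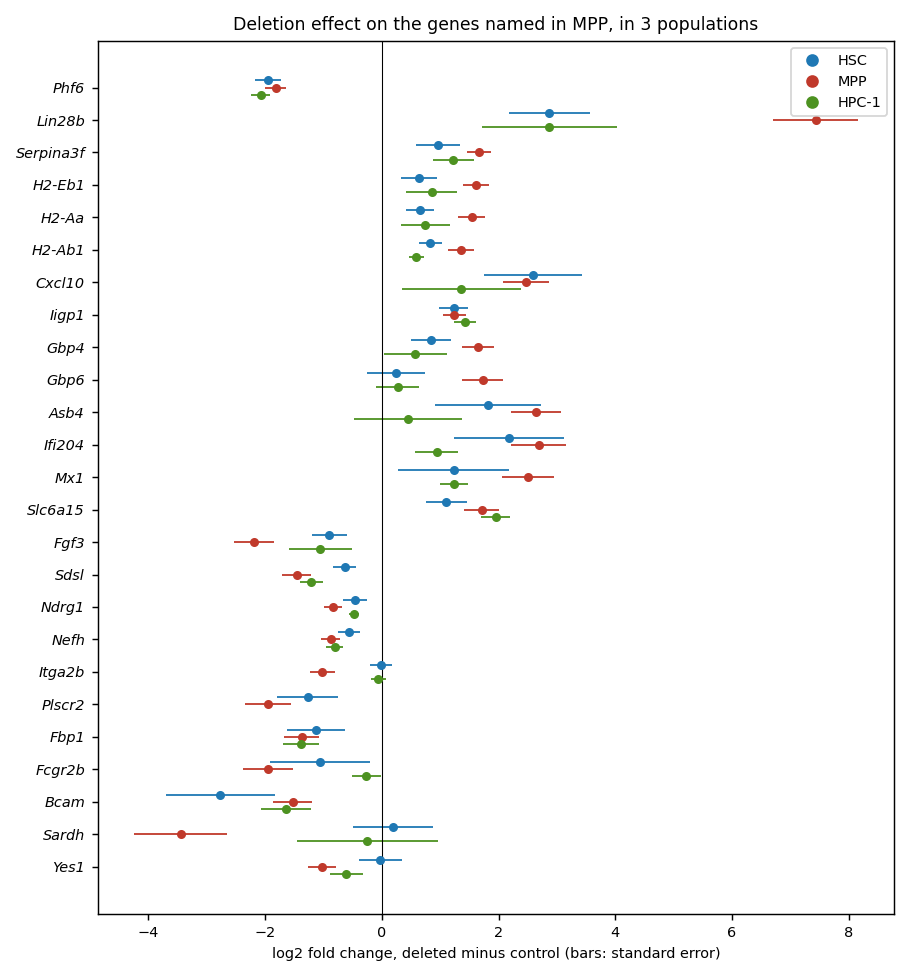
Log2 fold change, deleted minus control, of Phf6 and 24 other genes named in MPP, in HSC (blue), MPP (red) and HPC-1 (green), with bars of 1 standard error. Phf6 lies between -2.08 and -1.82 in the 3 populations, Lin28b is at 7.43 in MPP against 2.87 in the others, and Itga2b is at -1.02 in MPP and near 0 elsewhere. The Lin28b fold in MPP is taken against 2 counts over all MPP controls.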

How the data were processed

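Poly(A) RNA of sorted bone marrow cells was sequenced, and the 8 MPP libraries were compared as 4 deleted against 4 control mice. Per the labels' protocols, lineage depletion used CD3, B220, GR1 and TER119, the sort used cKIT, SCA1, CD150 and CD48, and MPP and HSC cDNA was amplified by SMART-Seq v4 before Nextera XT, whereas HPC-1 had a TruSeq Stranded kit. The authors deposited raw counts of reads per gene. The submitters' processing notes name bcl2fastq, featureCounts and mm10. For the aligner, annotation and strand setting, nothing is given in the sources used here. This cDNA method does not mark strand, so overlapping and antisense genes cannot be told apart. The 24 sample files were identical to the deposited series table of 27179 Entrez identifiers, of which 25275 were named from RefSeq (GRCm38.p6) and 18 from GENCODE, and 1886 were left unnamed. Sequences are RefSeq's, with windows for 10456 of 13806 tested genes.

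The main test was edgeR's (version 4.0.16, R 4.3.3) with TMM scaling, filterByExpr at its defaults (minimum count 10, total 15) and no litter term (robust quasi-likelihood test, Benjamini-Hochberg adjustment, threshold 0.05). The standard error is the log2 fold change divided by the square root of F. Alternatives were the litter block, DESeq2 1.42.0, limma-voom 3.58.1 with and without library weights, other scalings and filters, the 16 SMART-Seq libraries together, and leaving out libraries. The scripts were tested on simulated data. List scores use log2 CPM with a prior count of 2. No pair of libraries in a group agreed within sampling noise (chi-square per degree of freedom 17.9 to 236.3), and 12385465 to 22133635 counts per library set the precision.

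The replicate number is the litter in the labels, so it pairs the mice by design. Deviations of litter mates from their group means correlated at 0.00, 0.03, 0.15 and 0.14 over genes in litters 1 to 4. Between a control and a deleted mouse of different litters the same correlation ran from -0.19 to 0.14.

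Named genes are Phf6, all genes past the threshold, the 12 with the lowest p in each direction without provisional symbols, up to 12 in each direction called by both DESeq2 and limma-voom, up to 4 members with the lowest p of each of 34 lists, and the 3 with the lowest p of each test of a differing effect. List members with an unadjusted p of 0.1 or more were mostly left unnamed, and a few named genes are not reported here. The members and lists were chosen with earlier results of these data known.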

Additional observations from a re-analysis of the deposited data

Results flagged for a closer look

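In 308 groups of 4 values, 33 held a library whose gap to its nearest neighbour took more of the group's range than Dixon's 95% limit for 4 values allows, where chance gives about 1 in 20. Of these, 13 were in deleted mouse 3, 5 each in controls 3 and 4, 3 each in control 1 and deleted mouse 4, 2 in control 2, and 1 each in deleted mice 1 and 2.

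Deleted mouse 3 was high for the interferon-responsive genes Cxcl10 (38.1 CPM against 16.4 to 19.9 in the other deleted mice), Ifi204 (28.8 against 9.11 to 10.2) and Mx1 (63.2 against 19 to 21.2), and for B2m (11720 against 4380.0 to 4690.0). In the first 3 of these genes the other deleted mice also exceeded every control. It was high for the homeobox genes Hoxb3 (140.0 CPM against 7.49 to 14.5) and Hoxa5 (55.9 against 21.9 to 25.6), for the cell cycle inhibitor Cdkn1b (50.3 against 10.2 to 13.7), and for Ier5 (135 against 71.8 to 80.1), Tcf4 (274 against 170.0 to 184), the platelet gene Ppbp (46.9 against 3.93 to 6.65) and Cd4 (23 against 1.42 to 2.3). It was low for the NuRD subunit gene Mta2 (129 CPM against 216 to 234) and in the p53 target score (-0.43 against 0.01 to 0.05). This is the library with the fewest genes detected.

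Deleted mouse 4 was high for the granulocyte genes Ngp (2618 CPM against 202 to 553) and Wfdc21 (131 against 15.8 to 34.9) and for Hdc, the histidine decarboxylase of basophils and mast cells (42.6 against 3.99 to 9.57). Control 3 was low for Ngp (38.4 CPM against 357 to 416), in the neutrophil and monocyte score (-2.88 against 0.23 to 0.59), for Chaf1a (47.6 CPM against 75.5 to 79.2) and in the S phase score (0.02 against 0.22 to 0.25), and high in the score of HOX, MEIS and identity factors (0.04 against -0.15 to -0.12).

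Control 4 was high for Myc (587 CPM against 394 to 412), Ccr9 (2.21 against 0.766 to 0.841) and Nkg7 (209 against 134 to 144), and in the class I score (0.10 against -0.11 to -0.09) and the dendritic score (0.20 against -0.31 to -0.24). Control 1 was high for the mitochondrial transcripts COX3 (2129 CPM against 990.0 to 1140.0), CYTB (7181 against 3930.0 to 4230.0) and ND4 (1499 against 654 to 792). Control 2 was high for Asb4 (5.07 CPM against 1.68 to 1.89) and Fas (3.10 against 1.07 to 1.2), deleted mouse 1 for Ldha (688 against 550.0 to 566), and deleted mouse 2 for Cdk6 (59.3 against 30 to 34.8).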

How the results depend on the processing

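The 4 calls of the main fit became 96 with DESeq2, 60 with library weights in limma-voom and 17 with the 16 SMART-Seq libraries in the fit. Leaving out 1 library gave 2 to 22, the highest without deleted mouse 3. Alternatives chosen after seeing the data gave 9 (limma-voom with the litter block), 23 (limma-voom without deleted mouse 3), 20 (edgeR without litter 3) and 0 (edgeR without litter 4, with 717 genes at an unadjusted p under 0.05 against 1117 in the main fit). The cause was not tested. Pairing by litter, the block, gave 6 in edgeR: it added H2-Aa, H2-Ab1 and Gm4951, ended H2-Eb1 and changed no other named call. Phf6 and Lin28b passed in all 8 fits that left out 1 library, and Serpina3f and H2-Eb1 only without deleted mouse 3. The tests of a differing effect gave 2 (HSC) and 7 (HPC-1) genes in DESeq2 in place of 0.

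List medians that moved by more than the spread between libraries were class II (0.34 to 0.82 without 1 library and 0.83 in limma-voom without deleted mouse 3, from 0.46), the fetal list (-0.04 with library weights and 0.06 in limma-voom without deleted mouse 3, from 0.28), the G1 list (-0.09 with the litter block, -0.08 in limma-voom, 0.05 without control 2 and -0.06 without litter 4, from -0.02), NuRD (-0.01 without litter 3), X chromosome neighbours (0.05, without deleted mouse 3, to 0.47 without 1 library, 0.06 in limma-voom without it, from 0.35), glycolysis (-0.10 in limma-voom without deleted mouse 3), TGF-beta (0.01 to 0.19 without 1 library and -0.03 without litter 4), megakaryocyte (-0.21, without deleted mouse 1, to 0.16), T and NK markers (-0.25 with the litter block, -0.48 in limma-voom, -0.25 in limma-voom without deleted mouse 3 and -0.13 without deleted mouse 4, from 0.19), basophil markers (-0.64, without deleted mouse 1, to 1.58) and the T-cell leukaemia list (0.22 without control 3). Of 2637 values of 115 named genes under 23 settings, 2489 kept their direction and side of the threshold, 127 crossed to significance, 19 lost it and 2 reversed, both of Flt4 (-0.02, without deleted mouse 2, to 0.84 without 1 library, and -0.03 without litter 4, from 0.51).

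With 4 mice a group and a biological coefficient of variation of 0.354, modest changes are hard to call here, and sequencing depth limits genes of a few counts, such as Lin28b in controls.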

Other observations

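Some further genes, picked after their values were seen, stood out in the deleted libraries. Rab39, a small GTPase of vesicle traffic, had 0 counts in all 4 control MPP libraries and 12, 53, 58 and 30 counts in deleted mice 1 to 4. Against a floor of 3 counts over the control group this was at least 48.4-fold higher. It missed the threshold in edgeR (adjusted p = 0.155) and passed in DESeq2 and in limma-voom with library weights. In HSC, Rab39 had 0, 11, 0 and 0 counts in controls and 176, 19, 0 and 26 in deleted mice, and in HPC-1 it had 11, 39, 0 and 16 in controls and 37, 15, 13 and 13 in deleted mice, so neither of these populations showed the same separation.

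Aldh1a1, a retinaldehyde dehydrogenase, was at 15, 12.3, 10.8 and 9.99 CPM in controls and 45.1, 48.5, 42.5 and 18.1 CPM in deleted mice (edgeR adjusted p = 0.139), and passed without deleted mouse 4. Mpeg1, the pore-forming protein of phagocytes, was at 2.70, 3.48, 0.946 and 2.21 CPM in controls and 13.9, 5.09, 11.3 and 11.2 CPM in deleted mice (adjusted p = 0.256). Ms4a6b, a membrane protein gene of immune cells, was at 0.90 ± 0.19 and Lgals1, a galectin, at 0.82 ± 0.20, both with separate groups. Ddx4, a germ cell RNA helicase, was at 22.4, 20.7, 16.4 and 13.0 CPM in controls and 43.8, 49.4, 144 and 30.9 CPM in deleted mice, with deleted mouse 3 far above the rest (adjusted p = 0.328).

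The remaining lists held no gene past the threshold apart from Phf6. The 11 tested genes beside Phf6 on the X chromosome had a median log2 fold change of 0.35, 20 p53 targets -0.19, 18 glycolysis genes -0.25, 16 immediate early genes -0.02, 18 TGF-beta genes 0.10, 16 G1 regulators -0.02, 9 basophil and mast cell markers 0.65, 8 endothelial and stromal markers -0.29, 7 B and plasma cell markers -0.07, 7 T and NK cell markers 0.19 and 12 surface markers 0.00. The 13 mitochondrially encoded genes had a median of 0.75, and 0.21 without deleted mouse 3. Their score was highest in that library (1.25) and lowest in deleted mouse 4 (-0.72).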
